A study of Mus musculus with 15 samples.

Results

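The experiment described here lowered Sin3a, which encodes the scaffold protein of the SIN3 histone deacetylase corepressor complex, in mouse embryonic stem cells and compared the cells with their own scrambled control. Its 6 arrays were chosen from the 15 of the series by sample title: 3 of cells with a Sin3A short hairpin RNA (shRNA) and 3 of cells with a scrambled shRNA, the latter a control set apart from the scrambled arrays of the Tet1 knockdown in the same series. The cells were the feeder-independent line E14TG2a.4 at passage 17, kept on gelatin with 15% foetal bovine serum and leukaemia inhibitory factor (LIF). Both groups had been transduced with lentivirus made from the plasmid pLKO.1 and selected with 2 µg/ml puromycin for 72 hours from 36 hours after transduction. Only 1 Sin3A hairpin was used, so a change caused by the loss of Sin3A and one caused by this hairpin cannot be told apart. Whether the 3 samples of a group were separate cultures is not stated in the labels, and the p-values therefore describe the spread among arrays, which may be technical.

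SIN3A has no enzymatic activity and binds no DNA itself. It holds histone deacetylases together with subunits that read chromatin, and it is brought to promoters by sequence-specific repressors such as the MAD proteins, REST and TGIF, while TET1 is also known to bind it. The complex is best known for removing acetyl groups from histones at gene starts, and in embryonic stem cells it is needed for proliferation and survival.

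Expression was measured for 21212 probe sets, with values taken as log2 levels from their range and processing, so a difference of 1 is a 2-fold change. Arrays of a group correlated with r between 0.996 and 0.998 across probe sets, and arrays of different groups with r between 0.991 and 0.993. All 6 arrays had a mean of 8.09, and the first principal component, 65.0% of the variance, separated the scrambled from the Sin3A shRNA arrays. The labelled cell type was borne out by its markers: all 8 of 8 embryonic stem cell markers lay in the top 25% of probe sets by level, with a mean of 12.13 to 12.16 in scrambled arrays and 12.11 to 12.16 in Sin3A shRNA arrays. All 4 measured blood markers lay below the median probe set (means of 5.44 to 5.65 and 5.41 to 5.61). Of 8 fibroblast markers, 4 lay above the median and none in the top 25% (means of 7.17 to 7.26 and 7.0 to 7.16). In such bulk RNA, fewer cells of a type and less RNA per cell cannot be told apart.

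Sin3a itself fell nearly 3-fold. Its level was 10.87, 10.99 and 10.94 in the scrambled arrays and 9.35, 9.38 and 9.43 in the Sin3A shRNA arrays. The groups did not overlap, and the spread within each was far below the gap between them. The log2 change was -1.55 ± 0.054 (standard error, n = 3 per group), a 2.93-fold decrease with a limma adjusted p of 1.28e-05. Sin3b, the paralogous scaffold, had a log2 change of -0.12 and did not pass the test (limma adjusted p = 0.175).

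The knockdown was accompanied by many small changes in both directions and few large ones. At an adjusted p below 0.05, 2592 probe sets were higher with the Sin3A shRNA, which is 12.2% of all tested, and 2669 were lower, which is 12.6%; together these were 24.8% of probe sets. The groups did not overlap for 8596 probe sets, or 40.5%. The median absolute log2 change of the called probe sets was 0.33, or 1.25-fold, and the smallest was 1.11-fold. A change of at least 2-fold was seen for 50 probe sets higher (0.236%) and 72 lower (0.339%). The calls fell among the better expressed probe sets: 16.3% of the 25% with the highest level were higher and 19.2% lower, against 3.19% and 2.56% of the 25% with the lowest. Without replicate 2 of the Sin3A shRNA group the counts were 1657 higher and 1702 lower.

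**Figure D1:**
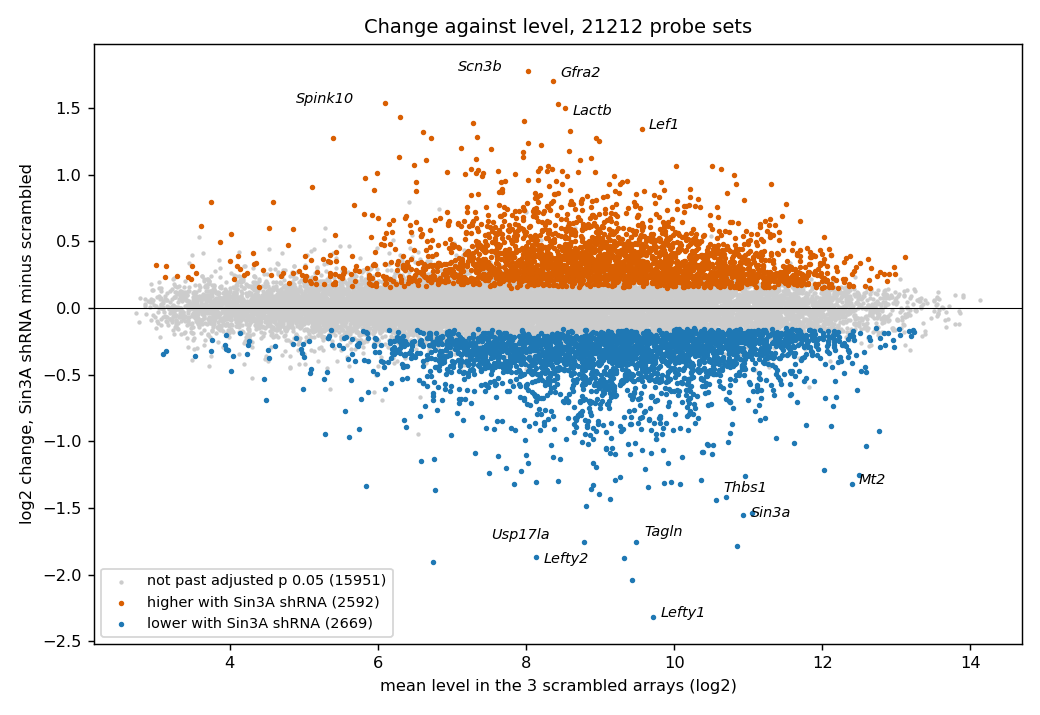
Log2 change with the Sin3A shRNA (vertical axis) against the mean log2 level in the 3 scrambled arrays (horizontal axis) for 21212 probe sets, with 2592 higher in orange, 2669 lower in blue and the rest in grey. Most called points lie close to 0, and the lowest is Lefty1 at -2.31.

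The largest named changes are shown array by array. Among the 15 strongest decreases were those of the Nodal antagonists Lefty1 and Lefty2, the PRAME family gene Pramel19, the actin-binding protein transgelin (Tagln), the deubiquitinase Usp17la, the myelin protein Pmp22, the matrix protein thrombospondin 1 (Thbs1), the cyclooxygenase Ptgs2, metallothioneins Mt1 and Mt2, and the receptor tyrosine kinase Axl. Among the 15 strongest increases were those of the sodium channel subunit Scn3b, the neurturin receptor Gfra2, the peptidase inhibitor Spink10, the deubiquitinase Stambpl1, the mitochondrial protein Lactb, the Wnt-linked transcription factor Lef1, the oocyte and stem cell protein Khdc3, the executioner caspase Casp6 and the microtubule protein Map1a. The lowest log2 change of all was that of Lefty1, and the other probe set below -2 had no symbol.

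**Figure D2:**
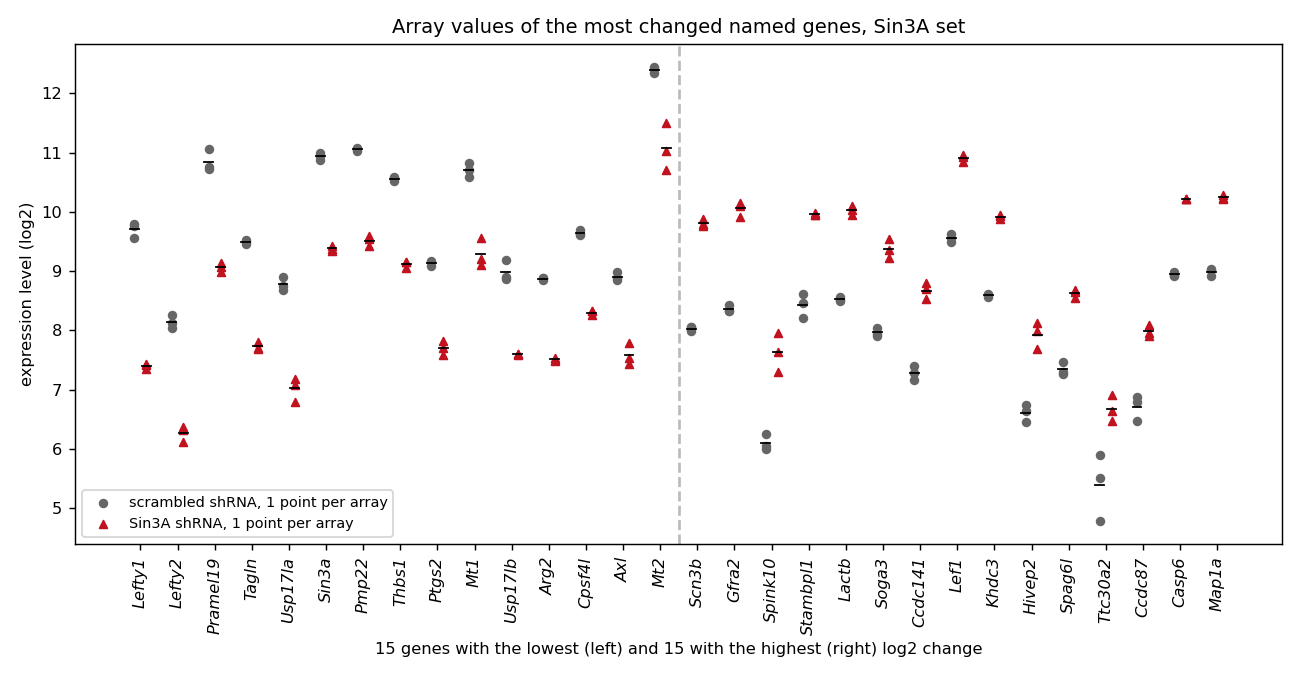
Log2 level on each of the 6 arrays for the 15 named genes with the lowest and the 15 with the highest log2 change, scrambled arrays as grey circles, Sin3A shRNA arrays as red triangles and group means as black bars. The groups do not overlap for any of these genes, since that was part of the rule that chose them; Ttc30a2 has the widest spread, with a standard deviation of 0.57 in the scrambled group.

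The other subunits of the SIN3 complex did not move as a block. Of 21 measured subunits, 8 were higher (38.1%, beside 12.2% of all probe sets). Another 4 were lower, Sin3a among them, beside 12.6% of all probe sets. Leaving out 1 array gave 6 to 8 higher and 3 to 5 lower. The median log2 change was 0.10 beside 0.01 over all probe sets. The inhibitor-of-growth proteins Ing2 and Ing1, which read methylated histone H3 and anchor the complex to chromatin, rose most. Ing2 was at 8.08, 8.21 and 8.05 in scrambled arrays and at 9.01, 8.95 and 8.98 in Sin3A shRNA arrays. Every Sin3A shRNA array was thus above every scrambled one, with a log2 change of 0.87 ± 0.058 (standard error) and a limma adjusted p of 8.59e-05. Ing1 rose by 0.56, the linker Sap30 by 0.40, the scaffold partners Arid4a and Sap130 each by 0.34, and the Sap30 paralog Sap30l by 0.25 on the log2 scale. Phf12 and Brms1l, which belong to particular forms of the complex, fell by 0.41 and 0.29. The catalytic subunits Hdac1 (log2 change -0.04) and Hdac2 (0.16), the histone chaperones Rbbp4 (0.05) and Rbbp7 (0.10), and Ogt (-0.13), the enzyme that adds N-acetylglucosamine to proteins, did not pass the test.

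Sap25, which encodes a SIN3-associated polypeptide and was singled out after its values were seen, fell more than any listed subunit except Sin3a. Its level was 10.48, 10.22 and 10.39 in scrambled arrays and 9.16, 9.15 and 8.91 in Sin3A shRNA arrays. The groups lay more than 1 log2 unit apart, with a log2 change of -1.29 ± 0.091 (standard error) and a limma adjusted p of 0.000109.

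**Figure D3:**
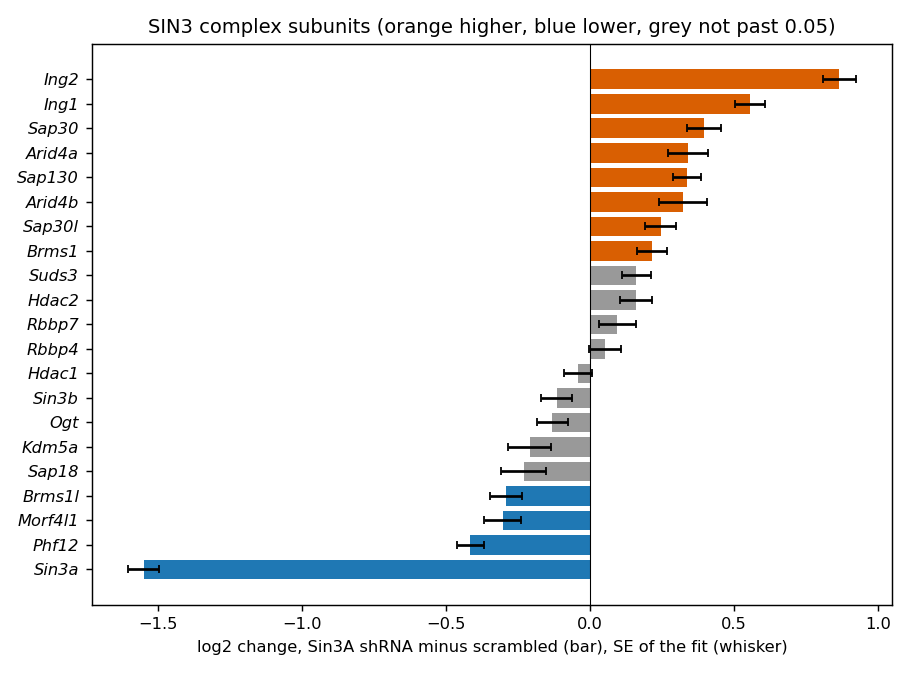
Log2 change with the Sin3A shRNA (bars) and its standard error in the limma fit (whiskers) for the 21 measured SIN3 complex subunits, orange for higher, blue for lower and grey for not past adjusted p 0.05. Sin3a is lowest at -1.55 and Ing2 highest at 0.87.

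Among 23 repressors known to recruit SIN3 proteins, 9 were higher (39.1%, beside 12.2% of all probe sets) and 4 lower (17.4%, beside 12.6%). Their median log2 change was 0.06. The MAD family members Mxd4 and Mxi1, which pair with MAX on E-boxes and oppose MYC, rose by 0.62 and 0.38, and Tgif1 and Klf10, repressors in the transforming growth factor pathway, by 0.31 and 0.28. Tet1, the methylcytosine dioxygenase, was at 12.48, 12.49 and 12.41 in scrambled arrays and at 12.68, 12.79 and 12.83 in Sin3A shRNA arrays. Its groups did not overlap, and it rose by 0.31 ± 0.058 (standard error; limma adjusted p = 0.00679). Without replicate 2 of the Sin3A shRNA group 5 of these repressors were higher and none lower, and without any other single array 2 were lower. Of 29 subunits of other corepressor complexes, 1 was higher (3.45%) and 9 lower (31.0%), with a median of -0.10. The NuRD subunit Mta1 fell by 0.54, the CoREST protein Rcor2 by 0.48 and the NCoR complex subunit Tbl1x by 0.34, while Rcor3 rose by 0.37. Those 9 became 3 without replicate 1 of the scrambled group and 5 without replicate 3 of the Sin3A shRNA group, and 2 were higher without replicate 1 of that group.

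The Nodal antagonists Lefty1 and Lefty2 were the most strongly lowered named genes. NODAL signals through activin receptors and SMAD2, SMAD3 and FOXH1, and LEFTY proteins are both secreted inhibitors of NODAL and products of its target genes. Lefty1 was at 9.77, 9.80 and 9.57 in scrambled arrays and at 7.44, 7.34 and 7.41 in Sin3A shRNA arrays, a log2 change of -2.31 ± 0.072 (standard error) or 4.97-fold (limma adjusted p = 8.7e-06). Lefty2 was at 8.04, 8.25 and 8.12 against 6.32, 6.12 and 6.38, a log2 change of -1.86 ± 0.085 (standard error; limma adjusted p = 2.97e-05). For both genes all 3 Sin3A shRNA arrays lay well below all 3 scrambled arrays. The ligand Nodal itself, at 10.79, 10.79 and 10.83 in scrambled and 10.58, 10.73 and 10.75 in Sin3A shRNA arrays, had a log2 change of -0.12 and did not pass the test (limma adjusted p = 0.201). Of the 16 measured members, 3 were higher (18.8%, beside 12.2% of all probe sets) and 6 lower (37.5%, beside 12.6%), with a median of -0.10. Leaving out 1 array gave 2 or 3 higher and 4 to 6 lower. The cofactor Foxh1 and the proprotein convertase Furin, which cleaves the NODAL precursor, fell by 0.33 and 0.32, while the signal transducer Smad3 and the feedback inhibitor Pmepa1 rose by 0.48 and 0.34.

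Genes known from the 2-cell-like state, a rare and reversible condition of cultured stem cells that resembles the 2-cell embryo, were the list with the lowest median. Of 23 listed symbols 14 were measured. None of the 14 was higher and 9 were lower (64.3%, beside 12.6% of all probe sets), with a median log2 change of -0.81 beside 0.01 over all probe sets. In the 15-array fit 7 were lower, and with the replicate numbers as a block 10. The 9 were 5 deubiquitinases of the Usp17l family, the zinc finger gene Zfp352, the TD and POZ domain gene Tdpoz2, the arginase Arg2 and the membrane protein Tmem92. Usp17la was at 8.68, 8.89 and 8.75 in scrambled arrays and at 6.80, 7.19 and 7.08 in Sin3A shRNA arrays. The gap between the groups was several times the spread within either, with a log2 change of -1.75 ± 0.10 (standard error; limma adjusted p = 5.94e-05). Usp17lb, Usp17lc, Usp17le and Usp17ld had log2 changes of -1.39, -1.29, -1.11 and -0.53, Arg2 -1.36, Zfp352 -1.30, Tmem92 -1.08 and Tdpoz2 -0.31. The Usp17l genes are near-identical copies whose array probes may share signal, so their values are not independent of each other.

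The closeness of these copies extends upstream of the genes, which is why the 250 bases before the start of the most lowered members are shown (RefSeq, GRCm38.p6). The windows are chr7:104856766-104857015 on the plus strand for Usp17la, chr7:104842584-104842833 on the minus strand for Usp17lb and chr7:103416446-103416695 on the plus strand for Usp17lc. Capitals mark the longest run of bases that all 3 share, 29 bases long.
Usp17la: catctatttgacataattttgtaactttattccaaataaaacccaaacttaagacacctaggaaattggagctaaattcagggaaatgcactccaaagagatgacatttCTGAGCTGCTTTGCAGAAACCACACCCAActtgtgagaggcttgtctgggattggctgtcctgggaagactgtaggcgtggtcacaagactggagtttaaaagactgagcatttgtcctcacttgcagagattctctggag
Usp17lb: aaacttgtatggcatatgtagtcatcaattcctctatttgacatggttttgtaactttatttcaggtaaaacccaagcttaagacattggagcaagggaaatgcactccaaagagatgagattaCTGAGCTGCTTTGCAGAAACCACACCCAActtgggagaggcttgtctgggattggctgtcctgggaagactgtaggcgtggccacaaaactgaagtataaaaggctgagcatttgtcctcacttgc
Usp17lc: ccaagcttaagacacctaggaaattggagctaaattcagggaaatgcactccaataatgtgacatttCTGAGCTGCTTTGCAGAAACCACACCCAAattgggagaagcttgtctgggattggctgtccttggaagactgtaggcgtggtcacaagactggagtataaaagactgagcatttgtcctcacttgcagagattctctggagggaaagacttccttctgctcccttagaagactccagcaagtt
In local alignments, Usp17la and Usp17lb were identical in 87.6% of 233 aligned columns, Usp17la and Usp17lc in 95.2% of 208, and Usp17lb and Usp17lc in 85.5% of 193. Each window held 1 CpG, against a median of 5.0 per 100 bases over the promoter windows of all measured genes.

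The metallothioneins Mt1 and Mt2, small cysteine-rich proteins that bind zinc and copper, also fell together. Mt1 was at 10.58, 10.82 and 10.71 in scrambled arrays and at 9.55, 9.21 and 9.11 in Sin3A shRNA arrays (log2 change -1.42, limma adjusted p = 0.000208). Mt2 was at 12.40, 12.45 and 12.34 against 11.49, 11.03 and 10.71 (log2 change -1.32, limma adjusted p = 0.00126). The groups did not overlap for either gene, and the Sin3A shRNA arrays of Mt2 were spread over most of a log2 unit, with a standard deviation of 0.39 against 0.057 in scrambled arrays. Metal response elements are the sites through which the metal-sensing factor MTF1 acts on metallothionein genes, and their core was searched for as TGCACNC or TGCGCNC on both strands. The 250 bases before each start are shown with the core in capitals, for Mt1 at chr8:94178839-94179088 and for Mt2 at chr8:94172368-94172617, both on the plus strand of GRCm38.p6.
Mt1: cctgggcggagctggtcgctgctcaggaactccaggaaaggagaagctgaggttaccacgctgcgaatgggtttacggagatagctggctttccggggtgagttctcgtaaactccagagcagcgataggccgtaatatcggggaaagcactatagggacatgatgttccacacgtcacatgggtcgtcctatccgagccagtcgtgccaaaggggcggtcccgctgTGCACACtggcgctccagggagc
Mt2: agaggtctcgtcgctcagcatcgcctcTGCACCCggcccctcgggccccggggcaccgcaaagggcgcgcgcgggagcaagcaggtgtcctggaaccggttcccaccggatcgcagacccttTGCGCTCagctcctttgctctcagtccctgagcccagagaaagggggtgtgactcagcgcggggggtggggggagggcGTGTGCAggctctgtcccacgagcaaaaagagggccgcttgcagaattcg
The Mt1 window held 1 core and the Mt2 window 3. Of 32851 RefSeq promoter windows of this length, 21.4% held at least 1 and 1.26% at least 3. The printed windows, like those of the Usp17l genes, came from the first listed start of each gene. Bases after that start were not searched, so cores elsewhere in these promoters were not counted. Mtf1 itself had a log2 change of -0.23 and did not pass the test. In the list of 24 metallothionein and oxidative stress genes, 6 were higher, beside 12.2% of all probe sets. Another 5 were lower (20.8%, beside 12.6% of all probe sets). The glutathione transferase Gstm5 fell by 0.85, while the plasma glutathione peroxidase Gpx3 rose by 0.60 and the thioredoxin reductase Txnrd1 by 0.44.

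The highest log2 change belonged to a neuronal gene. Scn3b, an auxiliary subunit of voltage-gated sodium channels, was at 7.99, 8.05 and 8.06 in scrambled arrays and at 9.76, 9.87 and 9.80 in Sin3A shRNA arrays. The arrays of a group lay within about 0.1 of each other, and the change of 1.78 ± 0.053 (standard error), or 3.43-fold, had a limma adjusted p of 8.7e-06. It was 1 of 31 measured neuronal genes known to be silenced outside neurons by REST, a repressor that recruits SIN3A. Of these 31, 7 were higher (22.6%, beside 12.2% of all probe sets) and 1 lower (3.23%, beside 12.6%), while the median was 0.04; the lower ones were 2 when any Sin3A shRNA array was left out. The synaptic vesicle priming factor Unc13a was at 8.09, 8.07 and 7.92 in scrambled and 9.21, 9.30 and 9.30 in Sin3A shRNA arrays, a rise of 1.24. The neurofilament subunits Nefl and Nefm rose by 0.72 and 0.66, the potassium channel Kcnh2 by 0.53 and the granule protein Chga by 0.46, whereas the other neurofilament subunit, Nefh, fell by 0.30. Classical members such as Bdnf (0.01), Snap25 (0.02), Scg2 (0.01) and Gria2 (0.05) did not pass the test. Markers of neuroectoderm did not rise as a list: of 18, Neurod1 was higher by 0.77 (5.56% of the list) and 3 were lower (16.7%), or 1 without replicate 2 of the Sin3A shRNA group.

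Pluripotency genes and genes of the neighbouring states moved in both directions. Of the core factors, Nanog was lower by a small margin (log2 change -0.27, limma adjusted p = 0.00976), while Pou5f1 (0.08) and Sox2 (0.02), like Esrrb (0.00) and Zfp42 (-0.10), did not pass the test. Of 27 naive pluripotency genes, 4 were higher (14.8%, beside 12.2% of all probe sets) and 5 lower (18.5%, beside 12.6%), with a median of -0.01. Dppa3, a maternal factor that protects DNA methylation, had levels of 7.97, 7.90 and 7.70 in scrambled and 7.0, 6.80 and 7.02 in Sin3A shRNA arrays. Its groups were separate, with a log2 change of -0.91 and a limma adjusted p of 0.000379. Klf2 fell by 0.65 and Gdf3 by 0.37, while the LIF receptor Lifr rose by 0.58, Klf4 by 0.41 and Tfcp2l1 by 0.26. Of 17 genes of the formative and early epiblast state, 2 were higher (11.8%) and 7 lower (41.2%). Only 4 were lower without replicate 1 of the scrambled group and 3 without replicate 2 of the Sin3A shRNA group. The homeobox factor Otx2, which drives the exit from the naive state, was at 10.50, 10.49 and 10.53 in scrambled and 9.29, 9.53 and 9.42 in Sin3A shRNA arrays. All 3 knockdown values were about 1 log2 unit below the controls (log2 change -1.09 ± 0.067, standard error; limma adjusted p = 6.66e-05). Lef1, at 9.56, 9.49 and 9.63 against 10.84, 10.95 and 10.93, went the other way, by 1.35, and the methyltransferase Dnmt3b rose by 0.27.

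Early lineage genes were mixed. Among 22 trophectoderm genes 4 were higher (18.2%, beside 12.2% of all probe sets) and 9 lower (40.9%, beside 12.6%). The keratins Krt8, Krt18 and Krt19 fell by 1.01, 0.70 and 0.53. The transcription factors Tfap2c, Tfap2a and Gata3 fell by 0.62, 0.57 and 0.42, while Cited1, Tead4 and Bmp4 rose by 0.56, 0.48 and 0.45. The defining factors Cdx2 (-0.01) and Elf5 (0.09) did not pass the test. The mean over 8 trophectoderm markers, of which 3 lay above the median probe set, was 7.91 to 7.97 in scrambled and 7.72 to 7.79 in Sin3A shRNA arrays; its part in these decreases was not tested. Of 21 primitive endoderm genes 3 were higher (14.3%) and 2 lower (9.52%). The laminin chain Lama1 was up by 0.81, Sox7 up by 0.45, and the adaptor Dab2 and the apolipoprotein Apoe down (log2 changes of -0.86 and -0.62). The endoderm factors Gata4, Gata6 and Foxa2 did not pass the test, with log2 changes of -0.10, 0.05 and 0.01. Of 4 endothelial markers 2 were lower, with marker means of 8.44 in scrambled and 8.16 to 8.18 in Sin3A shRNA arrays; they were Pecam1, an adhesion protein that embryonic stem cells also make, with a log2 change of -0.92, and Vwf, with -0.22.

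Of 27 epithelial genes, 1 was higher and 14 were lower, which is 51.9% beside 12.6% of all probe sets (9 without replicate 1 of the scrambled group), and the median log2 change was -0.19. Krt8 was at 11.64, 11.67 and 11.53 in scrambled and 10.84, 10.47 and 10.51 in Sin3A shRNA arrays, with no overlap between groups (limma adjusted p = 0.000406). The placental cadherin Cdh3 fell by 0.70, the tight junction protein Cldn6 by 0.57, the anchoring protein Lad1 by 0.53 and the epithelial transcription factor Grhl2 by 0.48. The adhesion molecule Epcam (0.14) and the junction protein Tjp1 (0.09) did not pass the test. Mesenchymal and fibroblast markers did not move the opposite way: of 27, 3 were higher (11.1%, beside 12.2% of all probe sets) and 9 lower (33.3%, beside 12.6%). Tagln was at 9.49, 9.45 and 9.53 in scrambled and 7.70, 7.81 and 7.69 in Sin3A shRNA arrays, a 3.38-fold decrease. Thbs1 was at 10.57, 10.52 and 10.59 against 9.05, 9.16 and 9.16, a 2.71-fold decrease. Both pairs of groups were far apart relative to their spread, and the repressor Snai1, the receptor Pdgfrb and smooth muscle actin Acta2 fell by 0.60, 0.58 and 0.54. Snai2 and Vim rose by 0.43 and 0.38, and the collagens Col1a1 (-0.20), Col1a2 (-0.07) and Col3a1 (-0.03) did not pass the test. The range of the mean over 8 fibroblast markers is given above, and its part in these decreases was not tested.

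**Figure D4:**
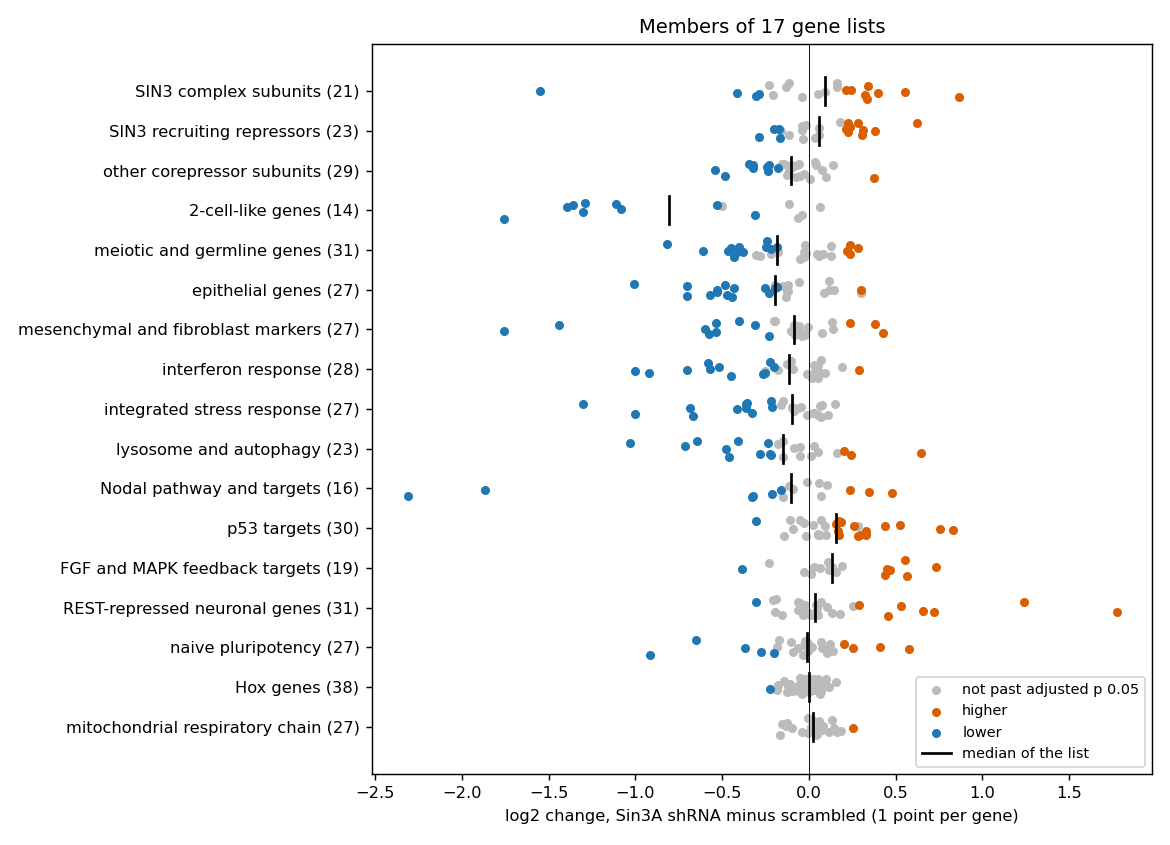
Log2 change with the Sin3A shRNA for each measured member (1 point per gene) of 17 gene lists, with list sizes in brackets, orange for higher, blue for lower, grey for not past adjusted p 0.05 and a black bar at each list's median. The 2-cell-like list lies furthest to the left, at a median of -0.81, and the Hox and respiratory chain lists stay close to 0.

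Genes known as targets of the tumour suppressor p53 were more often higher than lower. Of 30 measured, 15 were higher (50.0%, beside 12.2% of all probe sets) and 1 lower, with a median log2 change of 0.16. The 15 became 7 without replicate 1 of the scrambled group or replicate 3 of the Sin3A shRNA group, 8 without replicate 2 of either group, 9 without replicate 3 of the scrambled group and 10 without replicate 1 of the Sin3A shRNA group, and 9 in the 15-array fit or with the replicate numbers as a block. The lower one, Ddb2, was not called when any array except replicate 3 of the scrambled group was left out. The apoptosis-linked membrane protein Perp was at 10.21, 10.10 and 10.35 in scrambled and 11.00, 11.09 and 11.07 in Sin3A shRNA arrays (log2 change 0.83, limma adjusted p = 0.000226). Sesn1, a stress-inducible regulator of growth signalling, was at 9.19, 9.16 and 9.12 against 9.85, 9.97 and 9.92 (log2 change 0.76, limma adjusted p = 0.000109). Neither gene overlapped between groups, and the kinase Plk2 and the apoptosome component Apaf1 rose by 0.53 and 0.44. The best known targets, Cdkn1a (-0.11) and Mdm2 (0.05), did not pass the test.

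Of 19 apoptosis regulators, 7 were higher (36.8%, beside 12.2% of all probe sets) and 2 lower (10.5%, beside 12.6%). Only 1 was lower when any array except replicate 3 of the Sin3A shRNA group was left out. The pro-apoptotic protein Bcl2l11 (BIM) was at 9.48, 9.47 and 9.53 in scrambled and 10.36, 10.35 and 10.32 in Sin3A shRNA arrays, a rise of 0.85 ± 0.047 (standard error; limma adjusted p = 5.01e-05). Bmf and Bik, of the same BH3-only class, rose by 0.51 and 0.42, while Bak1, a protein that opens the outer mitochondrial membrane, fell by 0.70. Casp6, counted outside this list, was at 8.93, 8.98 and 8.92 against 10.22, 10.22 and 10.22 and thus rose by 1.27. These groups were separate in each case. The anti-apoptotic genes Bcl2 (-0.02), Bcl2l1 (-0.03) and Mcl1 (-0.17) did not pass the test.

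Of 38 cell cycle genes, 9 were higher (23.7%, beside 12.2% of all probe sets) and 5 lower (13.2%, beside 12.6%). The D-type cyclins parted. Ccnd2 was at 9.87, 9.86 and 10.03 in scrambled and 8.81, 8.82 and 8.64 in Sin3A shRNA arrays, a 2.24-fold decrease (limma adjusted p = 6.99e-05). Its groups lay about 1 log2 unit apart. Ccnd1 fell by 0.29, Ccnd3 rose by 0.67, and the pocket proteins Rbl2 and Rb1, which hold E2F factors in check, rose by 0.57 and 0.43. Replication genes such as Mcm2 (0.08), Mcm5 (0.11) and Cdc6 (0.04) and mitotic genes such as Plk1 (0.07), Cdk1 (0.07) and Ccna2 (0.02) did not pass the test. Of 19 feedback targets of FGF and MAPK signalling, 6 were higher (31.6%) and 1 lower (5.26%), with a median of 0.14. The inhibitor Spred1 rose by 0.73, the factors Etv1 and Etv4 by 0.55 and 0.45 and the phosphatase Dusp6 by 0.44. The immediate early gene Egr1 fell by 0.39. The lower ones were 2 without replicate 2 of the scrambled group or replicate 1 of the Sin3A shRNA group.

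In the integrated stress response and interferon response lists, more members were lower than higher, although most did not pass the test. Of 27 genes of the integrated stress response, by which cells adjust to amino acid shortage and unfolded protein, none was higher and 11 were lower (40.7%, beside 12.6% of all probe sets), with a median of -0.10. The transcription factor Atf4 was at 8.93, 9.06 and 8.87 in scrambled and 8.28, 8.22 and 8.31 in Sin3A shRNA arrays (log2 change -0.68, limma adjusted p = 0.00031). Chac1, which degrades glutathione, was at 10.03, 10.17 and 9.66 against 8.84, 8.58 and 8.54 (log2 change -1.30, limma adjusted p = 0.000497). The groups did not overlap for either gene. Nupr1 fell by 1.0 and Pck2, the mitochondrial phosphoenolpyruvate carboxykinase, by 0.67, while Ddit3 (-0.09) and Sesn2 (0.06) did not pass the test.

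Of 28 interferon response and antigen presentation genes, 1 was higher and 11 were lower (39.3%, beside the same 12.6%), with a median of -0.11. B2m, the light chain of class I major histocompatibility molecules, was at 10.76, 10.79 and 10.62 in scrambled and 9.88, 9.66 and 9.61 in Sin3A shRNA arrays. The lowest scrambled array was above the highest Sin3A shRNA array (log2 change -1.0, limma adjusted p = 0.000213). Ifitm1 fell by 0.92, the class I heavy chains H2-K1 and H2-D1 by 0.70 and 0.45, and the interferon signal transducers Irf9 and Stat2 by 0.57 and 0.52. Ifit1 (0.05), Mx1 (0.02) and Rsad2 (0.07), which respond to viral infection, did not pass the test, and the peptide transporter Tap1 rose by 0.29. Of 23 lysosome and autophagy genes, 3 were higher and 10 lower (43.5%), with a median of -0.15. The hexosaminidase Hexa fell by 1.03, the membrane protein Cd63 by 0.72 and the saposin precursor Psap by 0.64, while the autophagy protein Wipi1 rose by 0.65 and the lysosomal regulator Tfeb by 0.24.

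Of 31 meiotic and germline genes, 12 were lower (38.7%, beside 12.6% of all probe sets), 4 were higher and 15 did not pass the test, with a median of -0.18. Tex14 and Tex11, both needed for sperm formation, fell by 0.82 and 0.61, and the cohesin subunit Stag3 and the germ cell helicase Ddx4 by 0.43 and 0.41. Without replicate 2 of the Sin3A shRNA group 1 was higher and 6 lower, and without replicate 1 or 3 of the scrambled group or replicate 3 of the Sin3A shRNA group 2 were higher. The synaptonemal and recombination genes Sycp3 (-0.28), Dmc1 (0.08) and Spo11 (-0.03) did not pass the test.

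Imprinting silences the maternal or the paternal copy of a gene. Among 30 imprinted genes, 1 was higher (2 without replicate 1 of the Sin3A shRNA group) and 6 lower, with a median of -0.02; over all probe sets 12.2% were higher and 12.6% lower, so the share called in either direction was near that of all probe sets, 24.8%. Igf2, a fetal growth factor, was at 10.98, 10.91 and 10.98 in scrambled and 9.76, 9.75 and 9.56 in Sin3A shRNA arrays, a 2.40-fold decrease (limma adjusted p = 4.54e-05). Phlda2, which restrains placental growth, was at 12.49, 12.47 and 12.51 against 11.37, 11.29 and 11.05, a 2.38-fold decrease. Peg3, a paternally expressed zinc finger gene, was at 10.88, 10.81 and 10.81 against 11.72, 11.75 and 11.82, a 1.91-fold increase. All 3 genes had groups that were separate by about 1 log2 unit, while Igf2r (0.01), Grb10 (-0.04) and Ndn (-0.01) did not pass the test. Cdkn1c and Impact each fell by 0.62.

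Other chromatin and housekeeping lists had few called members. Most Hox genes were at low levels: 22 of 38 remained without the lowest 25% of probe sets, and 2 lay above the median level. In the 25% of probe sets with the lowest level, 3.19% were called higher and 2.56% lower, so a lack of calls says little about Hox genes. Of 38 Hox genes, none was higher and 1, Hoxd11, was lower; leaving out replicate 3 of the scrambled group or replicate 2 or 3 of the Sin3A shRNA group left none lower, leaving out replicate 1 of the Sin3A shRNA group gave 2 lower, and leaving out its replicate 3 gave 1 higher. Of 28 Polycomb components 1 was higher and 3 lower, or 1 lower without replicate 2 of the Sin3A shRNA group; Phc3 rose by 0.47 and Pcgf1 fell by 0.34, while the catalytic subunits Ezh2 (0.15) and Rnf2 (0.11) did not pass the test. Of 27 respiratory chain genes 1, the succinate dehydrogenase subunit Sdhc, was higher by 0.25 and none was lower, or 1 lower without replicate 3 of the scrambled group. The shares called, beside 12.2% higher and 12.6% lower over all probe sets, were 0.0% and 2.63% of Hox genes, 3.57% and 10.7% of Polycomb components and 3.7% and 0.0% of respiratory chain genes. With trended and robust eBayes 4 Polycomb components were higher and 6 lower.

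The promoters of the called genes differed in base composition from those of all measured genes, as a description with no test. Windows of 300 bases, from 250 before to 50 after the RefSeq start, were found for 15059 measured genes. RefSeq listed more than 1 promoter for 4163 genes, and the first listed was used. The median was 7.0 CpG per 100 bases for 1983 genes called higher, 6.0 for 1961 called lower, 5.0 for all measured genes and 7.33 for 4579 uncalled genes in the upper part of the level range. Windows with fewer than 2 CpG per 100 bases made up 9.33%, 14.7%, 28.1% and 5.09% of these groups. Among genes lower by at least 2-fold, 44 with a window, the median was 2.5 and 36.4% lay under 2 CpG per 100 bases; among 42 genes higher by at least 2-fold these were 4.83 and 14.3%. The Sp1-type sequence GGGCGG, on either strand, was in 70.5% of windows of genes called higher, 58.9% of those called lower, 50.2% of all and 68.6% of the uncalled, well expressed ones. The E-box CACGTG, which MAD and MYC proteins bind, was in 8.17%, 11.4%, 8.41% and 11.5%. Called genes were better expressed than most, so the uncalled, well expressed genes are the nearer comparison.

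Sin3A and Tet1 bind each other, and the series also lowered Tet1 with 2 hairpins, shRNA 4 and shRNA 5, in the same cell line, with 3 arrays each and 3 scrambled arrays of their own. The responses were weakly related: across probe sets, whose values depend on each other, the Sin3A and mean Tet1 log2 changes correlated with r = 0.184 and rho = 0.101. With both Tet1 hairpins 1146 probe sets were higher (5.4%) and 722 lower (3.4%). Of these, 358 were also higher with the Sin3A shRNA, which is 31.2% of the Tet1 list and 13.8% of the Sin3A list, and 284 were lower in both, 39.3% and 10.6%. Opposite directions were seen for 107 probe sets higher with the Sin3A shRNA (4.13% of that list and 14.8% of the probe sets lower with Tet1) and 212 lower with it (7.94% of that list and 18.5% of those higher with Tet1). Over all probe sets 12.2% were higher and 12.6% lower with the Sin3A shRNA. The shares of the Tet1 lists lay above these in the same and in opposite directions, but the lists were not matched for level. In the 25% of probe sets with the highest level 16.3% were higher and 19.2% lower, and in the next 25% 20.1% and 19.6%. The opposite-direction shares of 14.8% and 18.5% did not exceed these, whereas the same-direction shares of 31.2% and 39.3% did. A direct test of the difference, Sin3A effect minus mean Tet1 effect over all 15 arrays, gave 1848 probe sets higher (8.71%) and 2393 lower (11.3%). Array means were 8.09 in the Sin3A set and 7.08 to 7.11 in the Tet1 set. A difference between the knockdowns and one between the array sets cannot be told apart.

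**Figure D5:**
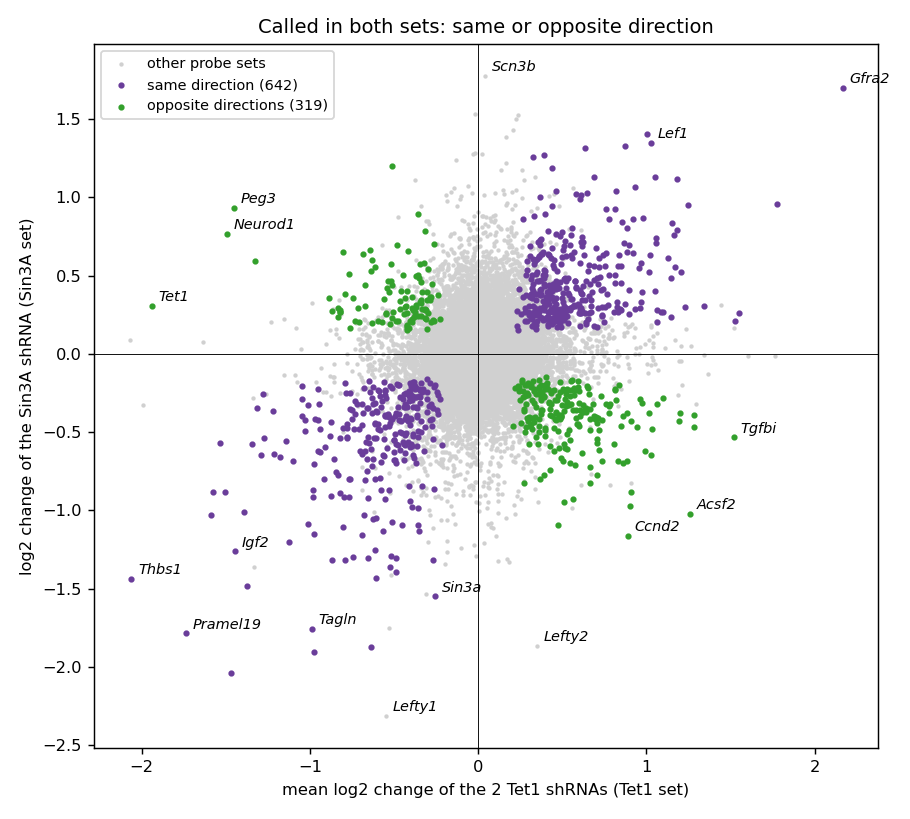
Log2 change with the Sin3A shRNA (vertical axis) against the mean log2 change of the 2 Tet1 shRNAs (horizontal axis), 1 point per probe set, with probe sets called in both sets shown in purple for the same direction (642) and green for opposite directions (319). Gfra2, Pramel19 and Thbs1 lie far out in the same direction, while Peg3, Neurod1 and Tet1 lie in the upper left.

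Some of the strongest Sin3A changes were also called with both Tet1 hairpins in the same direction, with or without a difference in size. Gfra2 was at 8.32, 8.43 and 8.32 in scrambled and 10.16, 10.10 and 9.92 in Sin3A shRNA arrays, a rise of 1.70, and rose by 2.11 and 2.22 with the Tet1 hairpins; the difference of -0.46 passed the test (limma adjusted p = 0.0231). Lef1 rose by 1.35 with the Sin3A shRNA and by 0.91 and 1.15 with the Tet1 hairpins, and its difference of 0.32 also passed (limma adjusted p = 0.0473). Pramel19 had log2 changes of -1.79 with the Sin3A shRNA and -1.87 and -1.60 with the Tet1 hairpins, a difference of -0.05 ± 0.23 (standard error) that did not pass the test (limma adjusted p = 0.913). Igf2 had log2 changes of -1.26 with the Sin3A shRNA and -1.39 and -1.51 with the Tet1 hairpins, and its difference of 0.19 ± 0.096 (standard error) did not pass either (limma adjusted p = 0.212). Sin3a itself had log2 changes of -0.27 and -0.24 with the Tet1 hairpins, far less than with its own (limma adjusted p of the difference = 4.99e-08).

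Other genes differed more between the knockdowns. Scn3b had log2 changes of 0.00 and 0.09 with the Tet1 hairpins, a difference of 1.73 ± 0.088 (standard error; limma adjusted p = 2.63e-08). Lefty2 had 0.74 and -0.04, a difference of -2.22 ± 0.23 (standard error; limma adjusted p = 1.27e-05), and Sap25 had 0.04 and -0.06 (difference -1.28, limma adjusted p = 1.88e-06). Peg3 rose with the Sin3A shRNA but had log2 changes of -1.51 and -1.39 with the Tet1 hairpins, a difference of 2.38 (limma adjusted p = 3.66e-09). The neurogenic factor Neurod1, at 9.55, 9.48 and 9.40 in scrambled and 10.25, 10.27 and 10.20 in Sin3A shRNA arrays, likewise rose by 0.77, against log2 changes of -1.76 and -1.23. Ccnd2 went the other way, with log2 changes of -1.16 against 0.73 and 1.05 (difference -2.05, limma adjusted p = 1.66e-08). The matrix protein Tgfbi (-0.53 against 1.59 and 1.45) and the acyl-CoA synthetase Acsf2 (-1.02 against 1.53 and 0.99) did so as well. Peg3, Neurod1, Ccnd2, Tgfbi and Acsf2 thus passed the test with both Tet1 hairpins in the direction opposite to that with the Sin3A shRNA.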

How the data were processed

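Total RNA of each sample was hybridised to 1 Affymetrix array, per the labels. The scale of the values the authors deposited is not stated; they were taken as log2 expression values from their range and from the submitters' processing notes, which name affy, RMA and limma, in versions not given in the sources used here. Every fold printed rests on that scale. RMA corrects background, normalizes arrays to 1 distribution and summarises probe sets, so a change shared by all genes would not be seen.

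Groups came from the sample titles. Tests came from limma (version 3.58.1, run in R 4.3.3; lmFit, then eBayes) on the 6 arrays, two-sided and with Benjamini-Hochberg adjustment over 21212 probe sets and a threshold of 0.05. The Tet1 set was fitted apart (9 arrays), since its column means were 7.08 to 7.11, and the difference of effects on all 15. The script was tested on simulated data.

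In the platform annotation 18786 probe sets had exactly 1 symbol, 6 had several and 2420 had none; 18775 symbols matched RefSeq (GRCm38.p6). Named genes were Sin3a, Sin3b and Tet1 to Tet3, the 15 highest and 15 lowest called changes with separate groups, 5 per direction that differed from or were shared with Tet1, 5 of opposite direction, and members of 33 gene lists (755 of 806 symbols matched), leaving out RIKEN, Gm and clone names. The members and lists were chosen with earlier results of these data known. Alternatives were repeated quantile normalization, median centring, filters on low levels, a replicate block, trended and robust eBayes, a 15-array fit and leaving out each array.

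The 3 same-numbered pairs had deviations correlating at -0.005, 0.021 and -0.274, so the numbers were not taken to pair samples.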

Additional observations from a re-analysis of the deposited data

How the results depend on the processing

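The counts of 2592 probe sets higher and 2669 lower were 2591 and 2682 after repeated quantile normalization, 2628 and 2637 after median centring, 2793 and 2834 without the lowest 25% by level, 2531 and 2478 without the lower part of the level range, 2884 and 2993 with trended and robust eBayes, and 2297 and 2386 in the 15-array fit. Leaving out 1 array gave 1657 to 2483 higher and 1702 to 2461 lower; fewer arrays were fitted. A 2-fold minimum left 50 and 72. With the replicate number as a block, 2026 were higher and 2085 lower, and the differences from Tet1 numbered 3723 in place of 4241. No call changed sign under any of these alternatives. The log2 change of Sin3a stayed between -1.58 and -1.52. Of the 42 genes named by rank or as target and relatives, Tet2 (0.21, limma adjusted p = 0.0329) was not called under the block (0.0564), the 15-array fit (0.0574) or when 5 of the arrays were left out in turn (0.0548 to 0.117), Hmgn5 was not called in the 15-array fit (0.109) or without replicate 2 of the Sin3A shRNA group (0.0529), and Tet3 was called without replicate 1 of that group (0.0475). Few arrays, 1 hairpin and low signal limit the precision: 3.19% of the lowest 25% by level were called higher.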

Other observations

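Most of the remaining lists moved in both directions, while ribosome biogenesis had more lower than higher calls (4.17% higher and 29.2% lower). Over all probe sets 12.2% were higher and 12.6% lower. Shares higher and lower were 27.8% and 22.2% for DNA methylation, 12.5% and 18.8% for Wnt, and 21.4% and 14.3% for BMP. They were 15.4% and 26.9% for glycolysis and hypoxia, 23.5% and 11.8% for cholesterol synthesis, and 11.8% each for mesendoderm. Of 18 genes of the DNA methylation machinery 5 were higher and 4 lower (2 or 3 higher when any array except replicate 1 of the Sin3A shRNA group was left out, and 2 lower without replicate 1 or 2 of either group). Gadd45b, a stress-induced protein linked to DNA demethylation, fell by 0.73 on the log2 scale, and the maintenance factor Uhrf1 (0.01) did not pass the test. Of 16 Wnt targets 2 were higher and 3 lower (5 without replicate 2 of the scrambled group): the Wnt inhibitors Notum and Axin2 fell by 0.68 and 0.37 while Lef1 rose by 1.35. Of 14 genes in the BMP list, which held ligands as well as targets, 3 were higher and 2 lower (1 without replicate 2 or 3 of the Sin3A shRNA group). The ligands Bmp4 and Bmp7 rose by 0.45 and 0.42, while the target Id3 had a log2 change of -0.53. Of 26 glycolysis and hypoxia genes 4 were higher and 7 lower, with Pdk1, Egln3 and Hk1 up by 0.58, 0.56 and 0.43 and Vegfa and Ndrg1 down, at log2 changes of -0.41 and -0.39. Of 17 cholesterol synthesis genes 4 were higher and 2 lower (2 higher without replicate 1 of the scrambled group or replicate 2 or 3 of the Sin3A shRNA group). Of 24 ribosome biogenesis genes 1 was higher and 7 lower (4 without replicate 2 of the scrambled group and 3 without replicate 2 of the Sin3A shRNA group), none by more than 0.29. Leaving out 1 array gave 0 to 2 higher: 0 without replicate 1 or 2 of the scrambled group or replicate 2 or 3 of the Sin3A shRNA group, and 2 without replicate 1 of the latter. Of 17 mesendoderm genes 2 were higher, or 1 when any array was left out, and 2 lower; Snai1 fell by 0.60 and Kdr, the receptor of vascular endothelial growth factor, rose by 0.38.

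Some genes outside the lists were singled out after their values were seen. Rsph4a and Rsph1 encode parts of the radial spokes of motile cilia, and Cfap77, Cfap69 and Spag6l encode other proteins of the ciliary axoneme. Rsph4a had a log2 change of 1.18, Rsph1 1.01, Cfap77 1.03, Cfap69 1.01 and Spag6l 1.28 with the Sin3A shRNA, all higher than scrambled in 3 of 3 arrays. Other cilia genes were not counted. Nr3c1, the glucocorticoid receptor, rose by 1.22 (limma adjusted p = 4.44e-05), and the difference from the Tet1 effect was 1.05 (limma adjusted p = 1.17e-06). The thyrotropin-releasing hormone gene Trh fell by 1.21 and the hedgehog-binding protein gene Hhip by 1.30.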
